A study of Mus musculus with 15 samples.

Results

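RNA-seq of MLL-ENL-transformed mouse fetal liver cells was examined for 34 genes of glucose metabolism, out of 53379 genes in the table and 24520 with any read. The members were taken by symbol: 10 genes of glucose phosphorylation and upper glycolysis, 8 of lower glycolysis and lactate dehydrogenase, 3 enzymes of fructose-2,6-bisphosphate, 5 genes of pyruvate dehydrogenase and its kinases, 4 of the pentose phosphate pathway and 4 hypoxia-inducible genes outside glycolysis. All 34 had a row, and 32 reached 10 normalized reads in at least 3 libraries and were tested. The other two were listed at almost nothing: Eno2, the neuronal enolase, had 0 to 4 reads per library, and Ldhb, the lactate dehydrogenase subunit of heart, also had 0 to 4.

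The cells carry the MLL-ENL oncogene and grew with IL-3. C1 and C2 each give a line labelled wild-type (WT), which the study's methods describe as floxed for Cebpa and Cebpb, and a double knockout line (dKO) with both genes deleted by TAT-Cre and a GFP vector. C1 also has LAPS, dKO cells with GFP and the rat C/EBPβ isoform LAP*. Each of the 5 groups has 3 RNA samples taken at different time points from 1 line, so the spread between them is that of repeated samplings of a culture, and the dKO lines are single clones from different animals. The WT lines list no GFP vector, so vector and deletion cannot be told apart. A library held 9212237 to 13613500 reads assigned to genes. Cebpa and Cebpb were at 0 in all 6 dKO libraries, and Cebpb took 3106 ± 961 normalized reads (SD, n = 3) in LAPS cells, where the rat sequence could contribute. The related gene Cebpe had a mean of 408 normalized reads in C1 WT, 2107 in C1 dKO and 1809 in LAPS. It had 505 in C2 WT and 2166 in C2 dKO. The paper describes the dKO clones as rare survivors that express C/EBPε. Deletion, selection of survivors and the higher Cebpe cannot be told apart here.

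Glycolysis splits glucose into pyruvate and makes lactate when pyruvate is not passed to the mitochondria. Pyruvate dehydrogenase opens the mitochondrial route, and its kinases (Pdk) close it. The pentose phosphate pathway branches from glucose-6-phosphate and yields NADPH and ribose. Many glycolytic genes are targets of the hypoxia-inducible factors HIF1A and EPAS1, which also drive Bnip3, Vegfa, P4ha1 and Egln3, and fast-growing myeloid cells use these routes heavily.

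Before any comparison, the libraries of a group differed from each other in one set of members. In C1 WT cells, replicate 3 was the lowest of the 3 libraries for 20 of the 20 tested members of glycolysis and the hypoxia-inducible group, while it was lowest for 37.3% of all 12673 tested genes. In LAPS cells replicate 3 was lowest for 20 of 20 (30.7% of all genes), in C2 WT cells replicate 1 for 19 of 20 (40.0%), and in C2 dKO cells replicate 2 for 17 of 20 (40.6%). In C1 dKO cells the lowest values were divided among replicates 1, 2 and 3 as 7, 3 and 10. The highest library stood a median of 2.02 times above the lowest for these 20 members in C1 WT cells, against 1.25 times over all tested genes. In C1 dKO cells the same medians were 1.15 and 1.196. The other 12 members, of the pentose phosphate, Pfkfb and pyruvate dehydrogenase groups, had a median ratio of 1.11 to 1.16 in every group. Within them Pdk1 stood apart, with ratios of 1.84 in C1 WT, 1.83 in LAPS, 1.47 in C2 WT and 1.93 in C2 dKO. It was lowest in the same libraries as the glycolysis members. Pdk2, with few reads, had 2.06 in C1 WT, 2.27 in LAPS and 2.16 in C2 WT.

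Bnip3, a mitophagy receptor gene, had 2208, 2640 and 369 normalized reads in the 3 C1 WT libraries, 377, 284 and 313 in C1 dKO, 1180, 1017 and 336 in LAPS, 3073, 5079 and 5365 in C2 WT, and 3200, 870 and 3328 in C2 dKO. C1 WT replicate 3 and LAPS replicate 3 thus lay at the level of the C1 dKO libraries. Summed over 17 other hypoxia-inducible genes, C1 WT replicate 3 had 10984 normalized reads against 20912 and 24098 in replicates 1 and 2, and C2 dKO replicate 2 had 13250 against 23056 and 23113. Summed proliferation markers were 65782 in C1 WT replicate 3 against 54148 and 53333, and 58012 in C2 dKO replicate 2 against 52884 and 53089. Of the other libraries low in these members, LAPS replicate 3 had 53994 against 54801 and 54170, the lowest of its group. C2 WT replicate 1 had 54071 against 53126 and 52260, the highest of its group by a smaller margin. The part of growth state or sampling time in these levels was not tested. Values without C1 WT replicate 3 and C2 dKO replicate 2 are given beside many of the results, and values without C2 WT replicate 1 or LAPS replicate 3 beside fewer.

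**Figure D1:**
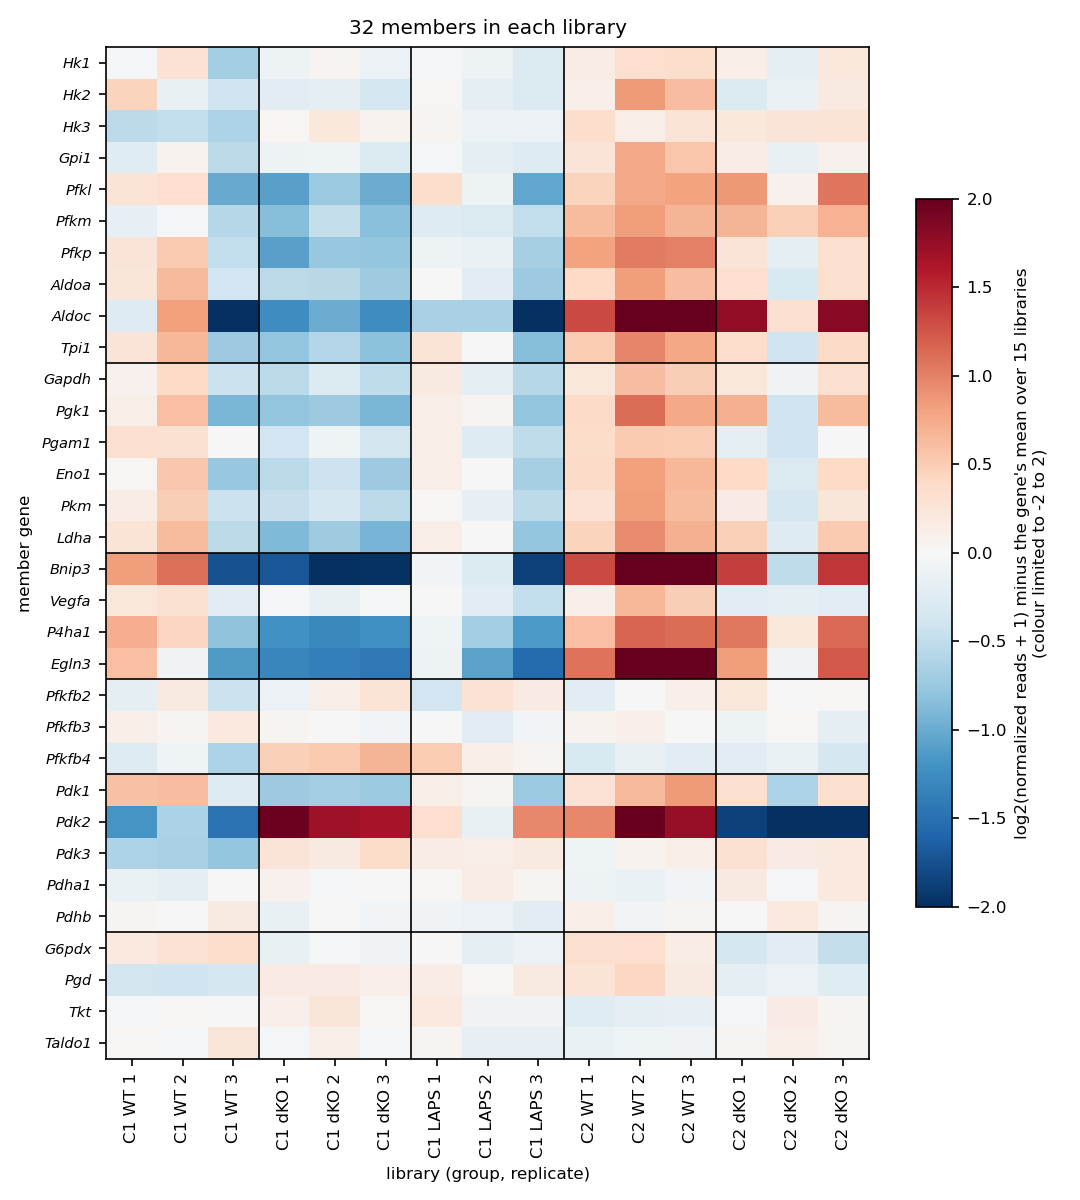
Columns are the 15 libraries and rows the 32 tested members in 6 role groups separated by lines. Colour is log2(normalized reads + 1) minus the mean of that gene over all libraries. The glycolysis and hypoxia-inducible rows, from Hk1 to Egln3, are mostly pale or blue in C1 WT 3, C1 LAPS 3 and all C1 dKO libraries, a pattern that below them returns for Pdk1 and not for the pentose phosphate rows.

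Whether these genes differed between dKO and WT cells was asked in C1 and in C2. The test was limma on log2(normalized reads + 1) over all 15 libraries, with a call at an adjusted p under 0.05. In C1 dKO cells, 5 of 32 members rose and 10 fell, while 17.1% of all tested genes were called higher and 19.9% lower. In C2 dKO cells, 2 rose and 10 fell, with 17.4% of all genes called higher and 20.1% lower. The median log2 fold change of the members was -0.34 in C1 and -0.45 in C2, and that of all tested genes -0.015 and -0.027. The member median was -0.50 in C1 without C1 WT replicate 3 and -0.20 in C2 without C2 dKO replicate 2, so the order of the lines turned with these libraries. Without C2 WT replicate 1 the C2 median was -0.58. Without C1 WT replicate 3, 16 members fell in C1 (20.1% of all genes in that fit), and without C2 dKO replicate 2, 6 fell and 1 rose in C2 (17.3% and 15.3% of all genes). Without C1 WT replicate 1 or replicate 2, 4 fell in C1 (16.4% and 17.6% of all genes), and without C1 dKO replicate 3, 5 fell (17.2%). The fall in C1 was thus no more frequent among members than among all genes in these fits. Without C2 WT replicate 2, 6 fell in C2 (16% of all genes). The 2 calls of a rise in C2 were both lost without any single C2 WT library or C2 dKO replicate 3, and 1 was lost without C2 dKO replicate 1.

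Egln3, Pfkp, Pgam1 and G6pdx fell in both, none rose in both, and Pgd and Pdk2 were called in opposite directions. Over all tested genes, 8.36% were called lower in both, 5.69% higher in both and 4.1% in opposite directions.

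**Figure D2:**
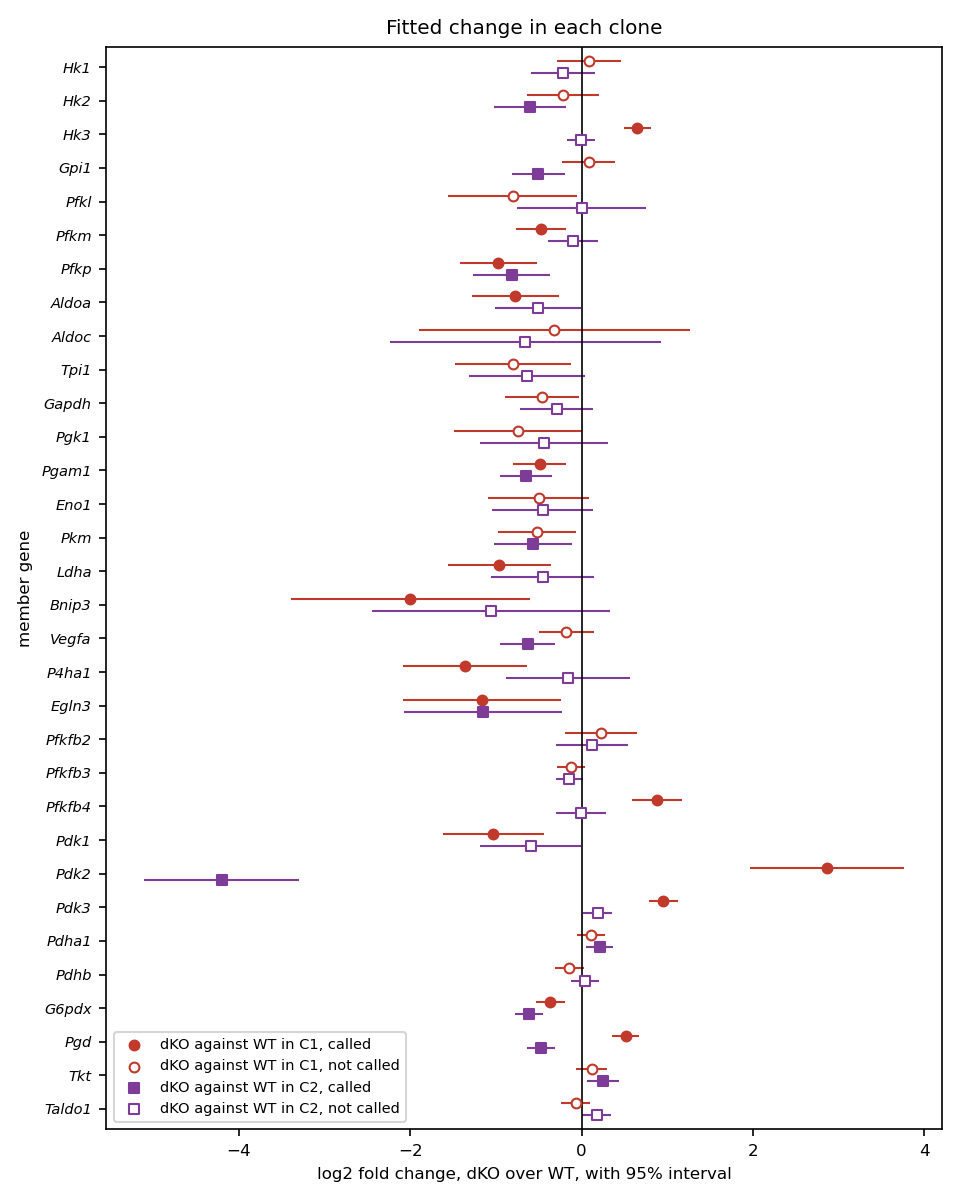
Points are the fitted log2 fold change of dKO over WT for the 32 tested members, circles for C1 and squares for C2, with 95% intervals. Filled points were called at an adjusted p under 0.05. Most glycolysis and hypoxia-inducible members lie left of 0 in both lines with wide intervals, and Pdk2 and Pgd lie on opposite sides.

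The hexokinases trap glucose in the cell as its 6-phosphate. Hk3, the hexokinase typical of myeloid cells, took most of the hexokinase signal in every group. It had 4343, 4437 and 4039 normalized reads in C1 WT, 6425, 7196 and 6509 in C1 dKO, 7962, 6827 and 7499 in C2 WT, and 7200, 7409 and 7489 in C2 dKO. The C1 groups did not overlap and the C2 groups did. Hk3 rose in C1 (log2 fold change 0.65 ± 0.08 (SE), adjusted p = 5.5e-06) and had -0.01 ± 0.08 in C2 (adjusted p = 0.94). Hk2, the inducible hexokinase, fell in C2 (-0.60 ± 0.20, adjusted p = 0.024) but not past the threshold without C2 dKO replicate 2 (-0.58, adjusted p = 0.065), C2 dKO replicate 1, C2 WT replicate 2 or C2 WT replicate 3, whose removal gave adjusted p up to 0.13. Hk1, the widely expressed form, passed in neither (0.09 in C1 and -0.22 in C2), and its C1 value was -0.18 without C1 WT replicate 3.

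The phosphofructokinases catalyse the committed step of glycolysis, and their platelet-type gene Pfkp (chr13:6579768-6648777, minus strand, mm10) fell in both lines. It had 3362, 4040 and 2016 normalized reads in C1 WT, 1326, 1662 and 1648 in C1 dKO, 4938, 5836 and 5671 in C2 WT, and 3382, 2496 and 3544 in C2 dKO. All dKO libraries lay below all WT libraries of the same line. The log2 fold change was -0.97 ± 0.21 (adjusted p = 0.0020) in C1 and -0.82 ± 0.21 (adjusted p = 0.0066) in C2, and both calls held in all 15 fits that left out a library. The muscle-type gene Pfkm fell in C1 (-0.47 ± 0.14, adjusted p = 0.014), a call lost without C1 WT replicate 1 or 2 or C1 dKO replicate 1 or 3 (adjusted p up to 0.068), and had -0.10 in C2. The liver-type gene Pfkl had 2673, 2797 and 1098 normalized reads in C1 WT against 1040, 1321 and 1118 in C1 dKO, where C1 WT replicate 3 lay within the dKO range. Its log2 fold change was -0.81 ± 0.36 (adjusted p = 0.089), and -1.24 without that library (adjusted p = 0.0058). In C2 Pfkl had 0.001 ± 0.36 (adjusted p = 1.0), and 0.30 without C2 dKO replicate 2 (adjusted p = 0.58).

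Among the other upper glycolysis genes, Aldoa, the main aldolase, fell in C1 (-0.77 ± 0.24, adjusted p = 0.018) and had -0.51 ± 0.24 in C2 (adjusted p = 0.11). The C1 value of Aldoa without C1 WT replicate 3 was -1.05 (adjusted p = 0.0014), and without C2 dKO replicate 2 the C2 value was -0.29 (adjusted p = 0.39). The Aldoa call in C1 was lost without C1 WT replicate 1 or 2 or C1 dKO replicate 3 (adjusted p up to 0.096). Gpi1, glucose-6-phosphate isomerase, fell in C2 (-0.50 ± 0.15, adjusted p = 0.013), from 21434, 30410 and 26423 normalized reads in C2 WT to 19884, 16072 and 18911 in C2 dKO. Without C2 dKO replicate 2 or C2 WT replicate 2 the Gpi1 call was lost (adjusted p = 0.061 and 0.073). Tpi1, triose phosphate isomerase, had -0.80 ± 0.32 in C1 (adjusted p = 0.060) and -0.64 ± 0.32 in C2 (adjusted p = 0.13), and the values were -1.196 without C1 WT replicate 3 (adjusted p = 0.0033) and -0.38 without C2 dKO replicate 2 (adjusted p = 0.41). Aldoc, the minor aldolase, passed in neither (-0.32 and -0.66), and its 3 C1 WT libraries had 135, 285 and 18 normalized reads. The Aldoc values were -1.44 without C1 WT replicate 3 (adjusted p = 0.0504) and -0.17 without C2 dKO replicate 2 (adjusted p = 0.90).

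In lower glycolysis, Pgam1, phosphoglycerate mutase (chr19:41911923-41918660, plus strand), fell in both lines. It had 3492, 3476 and 2814 normalized reads in C1 WT, 2145, 2638 and 2181 in C1 dKO, 3605, 4052 and 3990 in C2 WT, and 2490, 2136 and 2833 in C2 dKO. The groups did not overlap in either line. The log2 fold change was -0.49 ± 0.14 in C1 (adjusted p = 0.014) and -0.65 ± 0.14 in C2 (adjusted p = 0.0022), and the C1 call was lost without C1 WT replicate 1 or 2 or C1 dKO replicate 1 or 3 (adjusted p up to 0.059). Of the transcribed 76-base windows of Pgam1, 34.8% also occur in transcripts of other genes, chiefly the pseudogene Pgam1-ps2, so part of its reads may have been lost or shared in counting.

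Ldha, which makes lactate from pyruvate, had 22920, 29427 and 13105 normalized reads in C1 WT, 10330, 11624 and 10027 in C1 dKO, 25950, 36527 and 31215 in C2 WT, and 26432, 15858 and 27389 in C2 dKO. It fell in C1 (-0.96 ± 0.28, adjusted p = 0.014) and had -0.46 ± 0.28 in C2 (adjusted p = 0.22), where the groups overlapped. The Ldha value was -1.29 without C1 WT replicate 3 (adjusted p = 0.0010) and -0.20 in C2 without C2 dKO replicate 2 (adjusted p = 0.64). Its call in C1 was lost without C1 WT replicate 1 or 2 (adjusted p up to 0.074). Gapdh, Pgk1 and Eno1, which like Pgam1 act between triose phosphate and phosphoenolpyruvate, passed in neither line: their values were -0.46, -0.74 and -0.50 in C1 and -0.29, -0.44 and -0.45 in C2. Without C1 WT replicate 3 their C1 values were -0.68, -1.16 and -0.85, with adjusted p of 0.010, 0.0090 and 0.012. Without C2 dKO replicate 2 their C2 values were -0.18, -0.08 and -0.22. Pkm, pyruvate kinase, had -0.51 ± 0.21 in C1 (adjusted p = 0.072), and -0.77 without C1 WT replicate 3 (adjusted p = 0.0063). It fell in C2 (-0.56 ± 0.21, adjusted p = 0.0499). The Pkm call in C2 was lost in 9 of the 15 fits that left out a library, among them that without C2 dKO replicate 2 (-0.38, adjusted p = 0.21). All 6 tested genes of lower glycolysis had values below 0 in both lines.

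**Figure D3:**
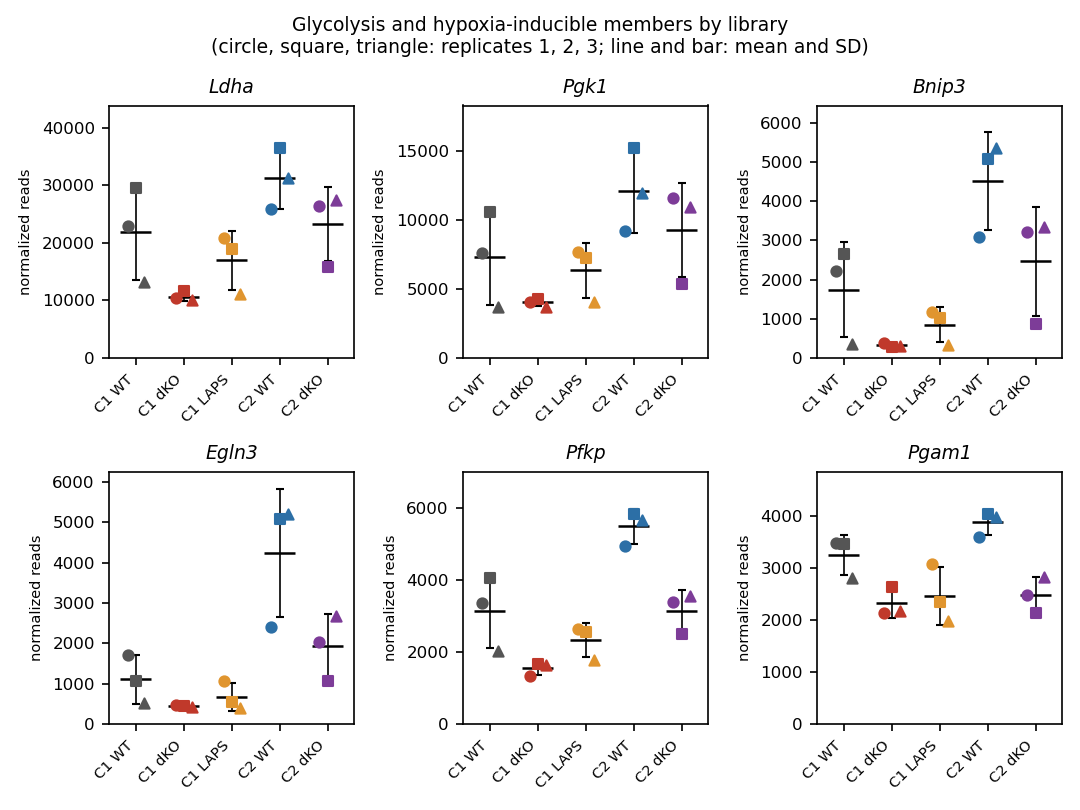
Normalized reads of 6 members in the 5 groups, with 1 marker per library and the mean and SD in black, on axes that start at 0. For Ldha, Pgk1, Bnip3 and Egln3, C1 WT replicate 3 (triangle) and LAPS replicate 3 lie near the C1 dKO libraries, whereas for Pfkp and Pgam1 all dKO libraries lie below the WT libraries of the same line.

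The hypoxia-inducible group outside glycolysis had the lowest medians of the 6 role groups, -1.26 in C1 and -0.84 in C2. It still had the lowest with -1.73 in C1 without C1 WT replicate 3 and -0.53 in C2 without C2 dKO replicate 2. Its C2 median was -1.05 without C2 WT replicate 1, where Egln3 had -1.52 (adjusted p = 0.019) and P4ha1 -0.34 (adjusted p = 0.54). Egln3, a prolyl hydroxylase that marks HIF proteins for degradation and is itself a HIF target (chr12:54178981-54203860, minus strand), had 1715, 1078 and 520 normalized reads in C1 WT, 461, 437 and 421 in C1 dKO, 2408, 5088 and 5216 in C2 WT, and 2022, 1076 and 2669 in C2 dKO. It fell by 1.17 (adjusted p = 0.046) and 1.15 (adjusted p = 0.048) on the log2 scale. Both Egln3 calls lay close to the threshold: each held in 6 of the 15 fits that left out a library and in 3 of 8 other settings, and without C2 dKO replicate 2 the C2 value was -0.78 (adjusted p = 0.21). The C1 value of Egln3 was -1.63 without C1 WT replicate 3 (adjusted p = 0.0063). P4ha1, a collagen prolyl hydroxylase subunit, had 1651, 1349 and 571 normalized reads in C1 WT and 430, 409 and 424 in C1 dKO. It fell there (-1.36 ± 0.34, adjusted p = 0.0050) and had -0.16 ± 0.34 in C2 (adjusted p = 0.75). The P4ha1 values were -1.82 without C1 WT replicate 3 (adjusted p = 1.0e-04) and 0.13 without C2 dKO replicate 2 (adjusted p = 0.81).

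Bnip3 fell in C1 (-1.997 ± 0.65, adjusted p = 0.025), although C1 WT replicate 3 lay within the dKO range, and had -1.06 ± 0.65 in C2 (adjusted p = 0.22). The Bnip3 call in C1 was lost without C1 WT replicate 1 or 2 or C1 dKO replicate 2 or 3 (adjusted p up to 0.12), and without C1 WT replicate 3 the value was -2.90 (adjusted p = 4.9e-04). In C2 without C2 dKO replicate 2, Bnip3 had -0.42 (adjusted p = 0.67). Vegfa, the endothelial growth factor, went from 1331, 1963 and 1744 normalized reads in C2 WT to 1067, 1082 and 1068 in C2 dKO. It fell there (-0.63 ± 0.15, adjusted p = 0.0039) and had -0.18 ± 0.15 in C1 (adjusted p = 0.39), or -0.34 without C1 WT replicate 3 (adjusted p = 0.071).

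The promoters of 3 members that fell in both lines are shown so that the hypoxia response cores in them can be read. Each is the 250 bases before the RefSeq start of the gene (GRCm38.p6), 5′ to 3′ on the strand of the gene, and capitals mark these cores, ACGTG or GCGTG on either strand. Egln3 is at chr12:54203875-54204124, Pfkp at chr13:6648772-6649021 and Pgam1 at chr19:41911621-41911870.
Egln3: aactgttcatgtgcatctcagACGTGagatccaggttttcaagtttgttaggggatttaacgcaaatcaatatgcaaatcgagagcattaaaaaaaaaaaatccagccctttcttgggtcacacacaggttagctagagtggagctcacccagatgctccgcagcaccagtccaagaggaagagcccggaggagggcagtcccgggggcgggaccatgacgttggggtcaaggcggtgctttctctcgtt
Pfkp: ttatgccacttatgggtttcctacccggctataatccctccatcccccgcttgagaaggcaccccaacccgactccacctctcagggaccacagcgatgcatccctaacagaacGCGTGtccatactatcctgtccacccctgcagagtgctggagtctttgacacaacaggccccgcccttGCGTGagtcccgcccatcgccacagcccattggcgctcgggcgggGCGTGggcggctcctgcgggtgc
Pgam1: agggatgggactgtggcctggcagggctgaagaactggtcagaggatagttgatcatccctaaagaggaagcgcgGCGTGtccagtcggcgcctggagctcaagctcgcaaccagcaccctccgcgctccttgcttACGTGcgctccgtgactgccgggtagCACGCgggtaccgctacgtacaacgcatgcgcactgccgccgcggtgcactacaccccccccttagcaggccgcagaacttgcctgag
The Egln3 window holds 1 core, and those of Pfkp and Pgam1 hold 3 each. A core of either kind lay in 41 of the 52 promoter windows of the 34 members (78.8%) and in 38.8% of the 32536 windows of the whole table. A C/EBP motif, TTGCNNAA on either strand, lay in 3 of the 52 windows (5.77%), none of them printed here, and in 9.57% of all windows. ACGTG is part of the E-box CACGTG, which lay in 6 of the 52 windows (11.5%) and 6.04% of all windows. These matches describe the letters of the windows only, and several windows belong to 1 gene. The window of G6pdx lies within an annotated exon and was not printed.

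The Pfkfb enzymes set the level of fructose-2,6-bisphosphate, the activator of phosphofructokinase. Pfkfb4 had 316, 353 and 246 normalized reads in C1 WT and 527, 540 and 600 in C1 dKO, without overlap, and 303, 340 and 322 in C2 WT against 320, 342 and 297 in C2 dKO. It rose in C1 (0.88 ± 0.14, adjusted p = 9.4e-05) and had -0.01 ± 0.14 in C2 (adjusted p = 0.97). Pfkfb3, the most abundant of the 3 per kilobase, had -0.12 and -0.14, and Pfkfb2 had 0.23 and 0.12, none past the threshold. Within this family Pfkfb4 held 26.3% ± 4.0 (SD, n = 3) of the normalized reads per kilobase in C1 WT cells and 41.1% ± 2.2 in C1 dKO cells, and 28.2% ± 1.0 and 29.8% ± 0.1 in the C2 groups.

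The pyruvate dehydrogenase kinases, which switch the complex off, changed in different directions. Pdk1, a HIF target, had 2743, 2806 and 1528 normalized reads in C1 WT and 1113, 1135 and 1095 in C1 dKO, and fell (-1.03 ± 0.28, adjusted p = 0.0083). In C2 it had -0.59 ± 0.28 (adjusted p = 0.11). The Pdk1 values were -1.31 without C1 WT replicate 3 (adjusted p = 0.0012) and -0.28 without C2 dKO replicate 2 (adjusted p = 0.45). Pdk3 went from 428, 420 and 382 to 790, 747 and 853 in C1 and rose (0.96 ± 0.08, adjusted p = 1.6e-07), and its C2 values were 619, 689 and 722 against 817, 740 and 755 (0.19 ± 0.08, adjusted p = 0.076). The C2 groups of Pdk3 did not overlap. The share of Pdk1 among these 3 kinases per kilobase was 64.3% ± 6.6 in C1 WT and 30.8% ± 1.7 in C1 dKO, while Pdk3 went from 35.4% ± 6.6 to 66.7% ± 1.9. In C2 the share of Pdk1 was 56.5% ± 2.7 in WT and 44.2% ± 8.3 in dKO, and that of Pdk3 was 41.8% ± 3.0 and 55.8% ± 8.3. In C2 dKO replicates 1 and 3 both kinases lay close to each other, with 48.0% and 49.9% for Pdk1 and 51.9% and 50.1% for Pdk3, while replicate 2 had 34.6% and 65.3%. The summed level per kilobase of the 3 kinases was 465 ± 102 normalized reads in C1 WT and 466 ± 18.1 in C1 dKO, and 637 ± 92.1 in C2 WT and 548 ± 92.9 in C2 dKO.

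Pdk2, a minor kinase here, had 4, 6 and 3 normalized reads in C1 WT and 43, 36 and 34 in C1 dKO, and 21, 45 and 37 in C2 WT against 2, 1 and 0 in C2 dKO. It rose in C1 (2.86 ± 0.42, adjusted p = 6.3e-05), from 3, 7 and 3 reads, and fell in C2 (adjusted p = 1.5e-06). The C2 dKO libraries held 0 to 2 reads, under a floor of 3 reads per library, so the C2 mean was at least 11.1-fold lower than in WT. Pdk2 held at most 2.56% of the kinase signal per kilobase in any group mean. The catalytic subunits of the complex itself moved little: Pdha1 rose in C2 (0.21 ± 0.08, adjusted p = 0.039) and had 0.11 in C1, and Pdhb had -0.14 and 0.04. The Pdha1 call in C2 was lost without any of the 3 C2 WT libraries, C2 dKO replicate 1 or C2 dKO replicate 3 (adjusted p up to 0.15).

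**Figure D4:**
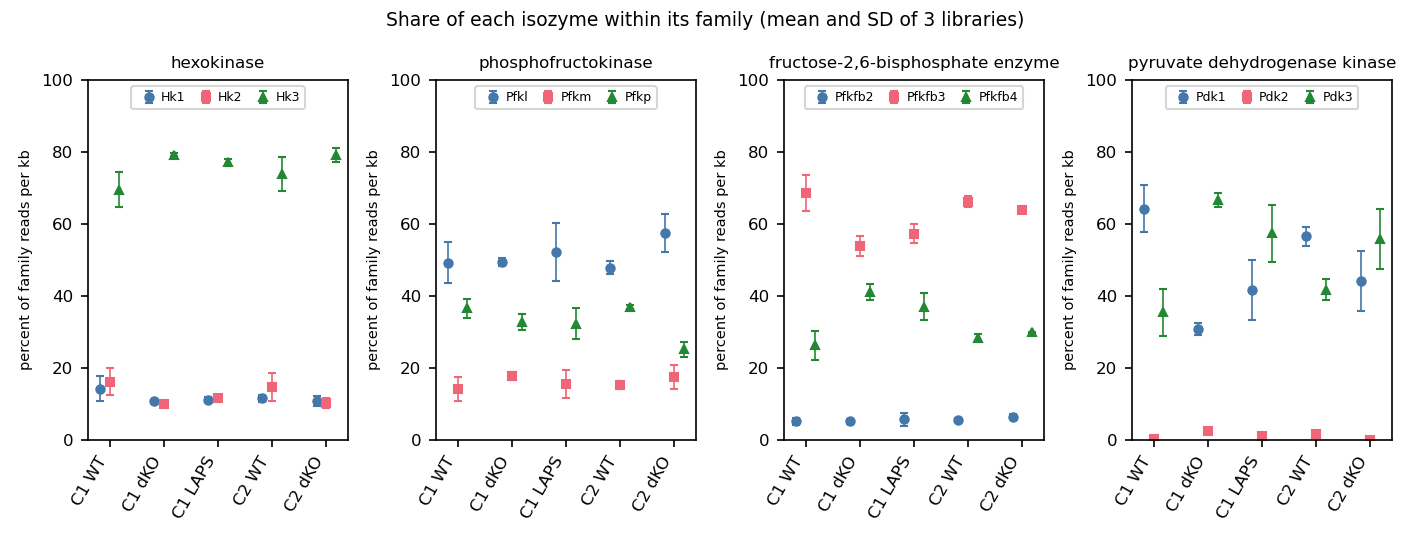
Share of each isozyme in the summed normalized reads per kilobase of its family, as mean and SD of 3 libraries per group. The mean shares of Pdk1 and Pdk3 exchange their order between WT and dKO cells in C1 and, by a small margin but for C2 dKO replicate 2, in C2, Pfkfb4 is higher in C1 dKO than in C1 WT cells, and Hk3 stays the largest hexokinase at 69.6% to 79.2%.

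In the pentose phosphate pathway, G6pdx, the entry enzyme that makes the first NADPH (chrX:74409483-74429194, minus strand), fell in both lines. It had 4569, 4883 and 5076 normalized reads in C1 WT, 3598, 3885 and 3795 in C1 dKO, 5002, 5038 and 4421 in C2 WT, and 3154, 3406 and 2887 in C2 dKO. All dKO libraries lay below all WT libraries. The log2 fold change was -0.36 ± 0.08 in C1 (adjusted p = 0.0018) and -0.61 ± 0.08 in C2 (adjusted p = 1.8e-05), and both calls held in all 15 fits without a library. C1 WT replicate 3, low in the glycolysis members, had the highest G6pdx value of its group.

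Pgd, the next NADPH-making enzyme (chr4:149149991-149166771, minus strand), moved in opposite directions. It had 9916, 9747 and 10141 normalized reads in C1 WT and 14419, 14402 and 13844 in C1 dKO, but 15524, 17182 and 14477 in C2 WT and 11252, 11796 and 10858 in C2 dKO. The groups did not overlap in either line, and the 3 libraries of each lay close together. Pgd rose in C1 (0.52 ± 0.07, adjusted p = 4.8e-05) and fell in C2 (-0.47 ± 0.07, adjusted p = 1.2e-04). The non-oxidative enzymes differed less: Tkt, transketolase, rose in C2 (0.25 ± 0.09, adjusted p = 0.031) and had 0.12 in C1, and Taldo1, transaldolase, had -0.07 and 0.18, neither past the threshold. Without C2 dKO replicate 2 the Tkt value in C2 was 0.21 (adjusted p = 0.12), and its call was also lost without C2 dKO replicate 3 or any of the 3 C2 WT libraries.

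The difference of the dKO change between C2 and C1 was tested directly. It was called for 6 of 32 members, all with a lower change in C2, and for 0 with a higher one, while 14.3% of all genes were called lower and 15.1% higher. At an unadjusted p under 0.05, 2 members had a higher change in C2, P4ha1 and Taldo1, with 19.9% of all genes at that threshold. edgeR called 1 higher and DESeq2 0, with 13.9% and 14.6% of all genes. The 6 were Pdk2, Pgd (-0.99 ± 0.11, adjusted p = 5.5e-06), Pfkfb4 (-0.89 ± 0.19, adjusted p = 0.0024), Pdk3 (-0.77 ± 0.11, adjusted p = 1.1e-04), Hk3 (-0.66 ± 0.11, adjusted p = 2.5e-04) and Gpi1 (-0.58 ± 0.21, adjusted p = 0.044). Of these, the Gpi1 difference was lost in 10 of the 15 fits without a library, including those without C1 WT replicate 3 (adjusted p = 0.10) and C2 dKO replicate 2 (adjusted p = 0.10). The other five held in all 15. For the 4 members that fell in both lines the difference was not called, with 95% intervals of -0.49 to 0.79 for Pfkp, -0.60 to 0.27 for Pgam1, -0.49 to -0.01 for G6pdx and -1.30 to 1.32 for Egln3.

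Differences with a larger fall in C1 depended on the libraries that stood apart. Without C1 WT replicate 3, 3 members had a higher change in C2 (P4ha1, Pfkl and Pfkm), with 15.6% of all genes in that fit. Without C2 dKO replicate 2 there was 1, with 14.5% of all genes. With both C1 WT replicate 3 and C2 dKO replicate 2 left out there were 9 (15.9% of all genes), a choice made after the data were seen. Under it the difference was 2.48 for Bnip3 (adjusted p = 0.0037), 1.96 for P4ha1 (adjusted p = 4.3e-04) and 1.09 for Ldha (adjusted p = 0.015), where the fit of all libraries gave 0.94, 1.204 and 0.50 (adjusted p = 0.49, 0.072 and 0.38).

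**Figure D5:**
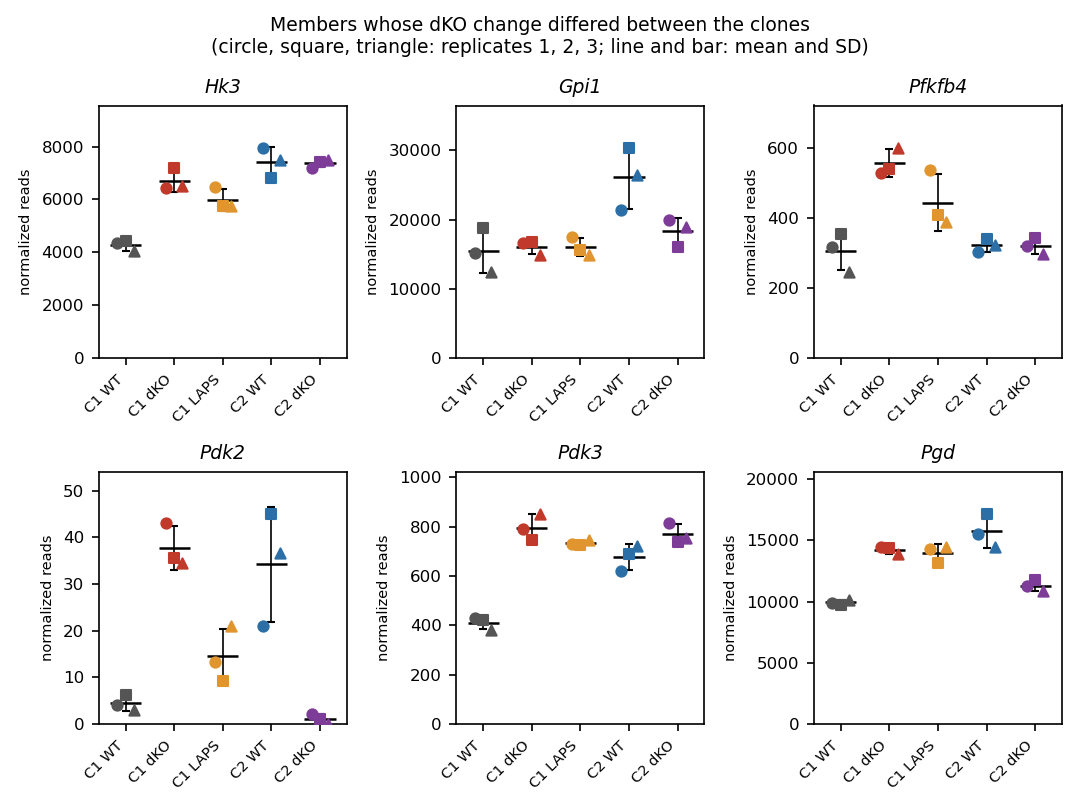
Normalized reads of the 6 members whose dKO change differed between the lines, with 1 marker per library and the mean and SD in black, on axes that start at 0. Hk3, Pfkfb4 and Pdk3 are higher in C1 dKO than in C1 WT libraries and differ less in C2, while Pgd and Pdk2 go up in C1 and down in C2.

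How these genes differed with C/EBPβ LAP* in the deleted line was asked in LAPS cells, where Cebpe was still well above its C1 WT level. Against dKO cells, 0 of 32 members were called higher and 0 lower by limma, with 1.43% of all genes called higher and 3.03% lower. edgeR called 0 higher and 1 lower (1.56% and 3.17% of all genes), and DESeq2 the same (2.09% and 4.12%). At an unadjusted p under 0.05 limma had 3 higher and 3 lower, with 7.72% and 10.2% of all genes. These cells are set against the same dKO libraries as the C1 WT cells were. The gene called by edgeR and DESeq2 was Pdk2, with 13, 9 and 21 normalized reads in LAPS libraries, all below the dKO libraries (-1.39 ± 0.42, adjusted p = 0.080 by limma). Pfkp had 2622, 2564 and 1783 in LAPS, all above the dKO libraries (0.57 ± 0.21, adjusted p = 0.15), and was called higher without C1 WT replicate 3, which changes only the shared spread (adjusted p = 0.043). Ldha had 20878, 18852 and 11102, with replicate 3 inside the dKO range (0.62, 95% interval 0.02 to 1.22, adjusted p = 0.26). Bnip3 had 1.19 (-0.20 to 2.58), P4ha1 0.59 (-0.13 to 1.32) and Egln3 0.46 (-0.46 to 1.39). Without LAPS replicate 3 the values were 0.90 for Ldha, 1.76 for Bnip3, 0.85 for P4ha1 and 0.78 for Egln3, with adjusted p from 0.14 to 0.50. For the members with little spread the intervals were narrow: -0.19 to 0.13 for Pgd, -0.18 to 0.16 for G6pdx and -0.29 to 0.05 for Pdk3.

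Against C1 WT cells, 5 members were higher in LAPS cells and 3 lower, with 14.2% of all genes called higher and 18.3% lower. This comparison shares its WT libraries with that of C1 dKO cells. Higher were Pdk2 (1.47), Pdk3 (0.84), Pfkfb4 (0.54), Pgd (0.49) and Hk3 (0.49), and lower were Pgam1 (-0.42), G6pdx (-0.38) and Pfkfb3 (-0.22). Pgd had 14253, 13138 and 14467 normalized reads in LAPS libraries, near its dKO values, and G6pdx had 4002, 3497 and 3701. Without C1 WT replicate 3, 11 were lower (18.6% of all genes). Without LAPS replicate 1, 7 were lower (16.3%). Without LAPS replicate 2, LAPS replicate 3 or C1 WT replicate 1, 1 was lower (16.2%, 15.9% and 15.7%).

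Genes beside the members were counted from lists. Over all tested genes, 17.1% were called higher and 19.9% lower in C1, and 17.4% and 20.1% in C2. Of 10 carriers of glucose, lactate and pyruvate, 1 rose and 6 fell in C1, and 2 rose and 3 fell in C2. The largest changes there were Slc2a3, the high-affinity glucose transporter GLUT3, which rose in both (3.81 and 2.42), and the monocarboxylate transporter Slc16a7, which fell in C1 (-2.77). Of 15 tested other hypoxia-inducible genes, 2 rose and 6 fell in C1, and 0 rose and 6 fell in C2. Among them, Ak4, a mitochondrial adenylate kinase, fell in C1 (-3.23), and P4ha2, a collagen prolyl hydroxylase subunit, fell in both (-3.11 and -3.21). Of 8 hypoxia pathway regulators, 2 rose and 2 fell in C1, and 1 rose and 4 fell in C2. Hif3a rose in C1 (1.80) and fell in C2 (-1.17). Hif1a, named after its values were seen, fell in both, by 0.44 (adjusted p = 0.018) and 0.57 (adjusted p = 0.0036).

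Of 9 other pentose phosphate genes, 1 rose and 4 fell in C1, and 1 rose and 1 fell in C2, and H6pd fell in both (-0.44 and -0.72). Of 10 glycogen genes the counts were 1 and 3 in C1 and 2 and 4 in C2, of 7 other pyruvate dehydrogenase complex genes 0 and 3, and 0 and 4, and of 10 other glycolysis isozymes and shunts 2 and 3, and 1 and 3. Pygl, liver glycogen phosphorylase, rose in C1 (0.99), and Gys1, glycogen synthase, fell in C2 (-0.97). Of 12 proliferation markers, 0 rose and 4 fell in C1, and 2 rose and 4 fell in C2. Beside these counts stand the shares of all tested genes, 17.1% higher and 19.9% lower in C1, and 17.4% and 20.1% in C2.

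Summed marker genes of other myeloid cells did not overlap between WT and dKO cells in C1. In C2 the neutrophil sums and the monocyte and macrophage sums overlapped. The summed level of 8 neutrophil markers was 21593 to 28475 normalized reads in C1 WT, 88491 to 110986 in C1 dKO, 35535 to 40112 in LAPS, 50700 to 91115 in C2 WT and 57849 to 90897 in C2 dKO. That of 8 mast cell, basophil and eosinophil markers was 68.3 to 94.99, 8725 to 16085, 855 to 1853, 103 to 122 and 759 to 1007, with 6 of the 8 genes at 0 in C1 WT and 0 of 8 in C1 dKO. That of 8 monocyte and macrophage markers was 28852 to 39550 in C1 WT, 19330 to 22079 in C1 dKO, 19479 to 22567 in LAPS, 14402 to 17129 in C2 WT and 13470 to 15584 in C2 dKO. The 7 erythroid and megakaryocyte markers with a row summed to 22.4 to 47.8 in C1 WT, 207 to 312 in C1 dKO, 61.8 to 75.2 in LAPS, 19.9 to 48.2 in C2 WT and 125 to 208 in C2 dKO, without overlap between WT and dKO. Of 4 hepatocyte markers, 3 were at 0 in every group. All 8 progenitor and promyelocyte markers had reads in every group, with sums of 93351 to 94905 in C1 WT, 171867 to 199174 in C1 dKO, 163728 to 200993 in LAPS, 93488 to 98914 in C2 WT and 137106 to 164480 in C2 dKO. The part of these cell states in the member levels was not tested, and in bulk RNA fewer cells of a type and less RNA per cell cannot be told apart.

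Some members cannot be fully separated from copies. Of the 76-base transcript windows, 52.7% of those of Pgk1, 22.9% of Eno1, 22.5% of Gapdh and 17.5% of Pkm also occur in transcripts of other genes, while Hk3, Pfkp, Pfkfb4, Pdk2, Pdk3, Pgd and Egln3 share none.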

How the data were processed

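Libraries of 15 samples were made from total RNA with a stranded mRNA kit and sequenced as paired-end 76-base reads. Per the labels and methods, the authors aligned reads to mm10 with STAR 2.5.3a, counted them with HTSeq 0.10.0 and normalized them with DESeq2 1.26.0. The annotation and the strand setting of the counting are not given in the sources used here. The deposited signal is a normalized read count per gene, that is, reads divided by 1 size factor per library. Whole reads could be recovered: 100% of the values up to 2000 lay within 0.1 of a whole read. The 5 summary rows, with 22.4% to 26.2% of reads, were left out, and 3 columns of LAPS cells that matched no sample were not used.

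limma 3.58.1 (R 4.3.3) was run across all 15 libraries on log2(normalized reads + 1), estimating a mean for each of the 5 groups with a trended prior. It covered the 12673 of 24520 genes that reached 10 normalized reads in 3 or more libraries. Fold changes on this scale understate those of low genes. P-values were adjusted by Benjamini-Hochberg over all tested genes. They measure the spread between samplings of 1 culture. The script was tested on simulated data. Alternatives were pseudocounts of 0.1 and 5, no filter, quantile normalization, fits restricted to the compared groups, a replicate block, edgeR 4.0.16 and DESeq2 1.42.0 on recovered reads, calls restricted to log2 fold changes of 0.5 or more in size (the size limit), each library left out, and, added after seeing the data, C1 WT replicate 3 and C2 dKO replicate 2 left out together because they agreed least with their groups over all genes.

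The members and lists were chosen with earlier results of these data known. Full values are given for members called in the same direction in both lines, those whose change differed between the lines and those called in LAPS against dKO cells, with the leading members of each role group, and for other lists the counts and at most the 2 largest changes per line. Levels per kilobase use the joined exons of GENCODE vM21. Shared 76-base windows were counted in GENCODE vM21 transcripts, and promoters came from RefSeq, where all 34 members matched. Summaries used pandas 2.3.3 and numpy 2.4.6 under Python 3.11.15, and matplotlib 3.10.9 drew the plots. Protein sequences were not analysed here. The values of 1 gene of these lists are not reported here.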

Additional observations from a re-analysis of the deposited data

Results flagged for a closer look

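The dKO change differed between C2 and C1 by a direct test for 6 members, given as the log2 change in C2 minus that in C1. Pfkfb4 had -0.89, Hk3 -0.66, Pgd -0.99, Pdk3 -0.77 and Gpi1 -0.58. Pdk2 had -7.06, a fitted value that depends on the pseudocount because the C2 dKO libraries held 0 to 2 reads. For Hk3, Pfkfb4 and Pdk3 the change was called in C1 and not in C2, for Gpi1 in C2 and not in C1, and for Pgd and Pdk2 in both with opposite sign. Animal of origin, clone and line cannot be told apart. The cause was not tested.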

How the results depend on the processing

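No member call reversed under any alternative. Of 15 calls in C1, 11 held in all 8 settings other than the size limit and 9 in all 15 fits without a library. Of 12 in C2, 7 and 6 did. In C1, 6 members were lower with only the groups compared (15.6% of all genes in that fit). With both C1 WT replicate 3 and C2 dKO replicate 2 left out, 17 were lower (21% of all genes). Leaving out 1 library gave 4 to 16 (16.4% to 20.3%). Higher in C2 were 0 with no filter (8.44% of all genes), 0 under quantile normalization (19.1%) and 0 at the size limit of 0.5 on the log2 scale (10.1%). With both libraries left out 1 was higher (16.5%), and without 1 library 0 to 2 (14.4% to 18.3%). Lower in C2 were 6 to 10 without 1 library (16% to 21.4% of all genes). For the difference between lines, 1 was higher by edgeR (13.9% of all genes), 9 with both libraries left out (15.9%), and 0 to 3 without 1 library (13.1% to 15.6%). In LAPS against dKO cells, 1 was lower with a pseudocount of 5 (3.49% of all genes), 1 by edgeR (3.17%) and 1 by DESeq2 (4.12%). There, 1 was higher with both libraries left out (2.32%), and 0 to 1 without 1 library (0.592% to 2.04%). In LAPS against WT cells, 3 were higher at the size limit (9.03% of all genes). Of the members, 1 was lower with no filter (9.81%), 1 under quantile normalization (15.1%) and 1 with only the groups compared (14.5%). By edgeR 1 was lower (17.5%), and at the size limit 0 (12.2%). With both libraries left out 13 were lower (19.3%), and without 1 library 1 to 11 (15.7% to 18.6%). With the replicate block, 5 members rose and 9 fell in C1 (16.6% and 19.3% of all genes). In C2, 2 rose and 8 fell (17% and 19.5%). Replicate numbers did not pair the samples: same-numbered libraries correlated at -0.32 to 0.30 in their deviations from group means (median 0.02), above 0.1 in 5 of 30 pairs. Where only the groups compared were fitted, fewer libraries set the spread. For the other changes the cause was not tested. Depth limited Pdk2, Eno2 and Ldhb.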
